A study of Mus musculus with 185 samples.

Results

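The NF-kB system of single Langerhans cells was described through 10 genes, which are 10 of the 45661 genes listed in the deposited table. They were chosen by role and not by level, with earlier results of these data known. Rel, Rela, Relb, Nfkb1 and Nfkb2 encode the 5 subunits of the transcription factor. Nfkbia, Nfkbie, Tnfaip3, Birc3 and Traf1 encode inhibitors and signalling proteins that act on it and are known as its targets. Langerhans cells (LCs) are the antigen-presenting cells of the epidermis. The sorted cells came from the epidermis of lethally irradiated CD45.1 Cd207DTR mice that had been given CD45.2 wild-type bone marrow. These hosts carry the diphtheria toxin (DT) receptor at the locus of Cd207, the LC lectin langerin. They received a low DT dose of 5 ng per g body weight, and LCs were sorted 2 months later. Host cells were called embryonic LCs (eLCs, label E) and donor cells monocyte-derived LCs (moLCs, label M), so every cell came from an irradiated, DT-treated skin, and only the eLCs carried the receptor. The sort kept lineage-negative cells with CD11c, CD11b, CD24, MHC class II and CD326 on their surface, and each cell was read in full length by Smart-Seq on 1 of 2 plates.

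Of 185 cells, 182 had at most 5% of their reads on mitochondrial (mt-) genes and were used. The moLCs numbered 67 on plate 1 and 36 on plate 2, and the 79 eLCs 29 and 50. Reads per cell ran from 432614 to 4525429. The median moLC had 2948820 reads and the median eLC 2779080. The labels name no animal, so each origin was treated as 1 sample, cells were not used as replicates, and no test between origins was made. Cd74, the invariant chain of MHC class II, was read in every cell of both origins, while Cd3e of T cells was at 0 reads in both. The T cell markers together summed to 0.36 CPM (reads per 1000000 reads) in moLCs and 0.41 in eLCs. Keratinocyte markers summed to 26.8 CPM in moLCs and 10.8 in eLCs, and all 4 mast cell markers were at 0. Other lists were not near 0. Monocyte markers summed to 76.3 CPM in moLCs and 33.9 in eLCs, and those of dermal type 1 dendritic cells to 169 and 198. Cd207 itself stood at 26238 CPM in moLCs and 2159 in eLCs. The eLCs alone carried the DT receptor at this locus, so origin and allele cannot be told apart for Cd207 in these cells.

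NF-kB subunits work as dimers. In resting cells inhibitors of the IkB family hold the dimers in the cytoplasm. Receptors for cytokines and microbial products activate kinases that mark the inhibitors for destruction, and the freed dimers enter the nucleus. RelA, c-Rel and p50, made from Nfkb1, serve the canonical route, and RelB with p52, made from Nfkb2, the alternative route. The factor then drives the genes of its own inhibitors, which closes a feedback loop. In dendritic cells it accompanies maturation.

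The start regions of these genes were read first, because many of them are known to be bound by NF-kB itself. RefSeq windows on GRCm38.p6, each from 250 bases before to 50 bases after an annotated RNA start, were searched on both strands for the kB consensus, a motif of 10 letters. A window was found for 8 of the 10 members. Relb and Nfkb1 had none in the table used. The consensus was present in at least 1 window of Rel, Nfkb2, Nfkbia, Nfkbie and Tnfaip3, which is 5 of 8 members (62.5%). It was present in 9.55% of the 27025 genes with windows and in 8.46% of all 32851 windows. For windows of genes read in at least 25% of cells the share was 10.8%. Of 65 further pathway genes with windows, from the lists described further on, 21 (32.3%) held it. Rela, Birc3 and Traf1 held no match in their windows. Stretches that hold a match are shown because the same motif stands before genes of both roles, subunit and inhibitor. Matches are in capitals, a run of more than 10 capitals being overlapping matches. Every stretch is written on the strand of its gene, so a match on the other strand appears as its complement.

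Rel, chr11:23770970-23771099, minus strand: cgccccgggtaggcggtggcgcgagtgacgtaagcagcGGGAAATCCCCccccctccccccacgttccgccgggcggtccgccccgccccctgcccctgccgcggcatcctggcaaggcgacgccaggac
Nfkb2, chr19:46304692-46304721, plus strand: cgtcacGGGAATTCCCCccctcggggggcc
Nfkbia, chr12:55492648-55492777, minus strand: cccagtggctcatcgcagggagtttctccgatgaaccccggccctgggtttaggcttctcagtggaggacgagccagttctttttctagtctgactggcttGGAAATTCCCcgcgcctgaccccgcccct
Nfkbie, chr17:45555570-45555699, plus strand: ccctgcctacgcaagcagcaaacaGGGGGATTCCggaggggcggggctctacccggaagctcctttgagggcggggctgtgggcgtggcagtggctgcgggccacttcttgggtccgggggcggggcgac
Tnfaip3, chr10:19015411-19015540, minus strand: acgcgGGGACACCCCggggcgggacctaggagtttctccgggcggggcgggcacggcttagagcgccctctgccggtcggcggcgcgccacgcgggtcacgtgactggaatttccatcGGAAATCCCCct

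Each of these stretches but that of Nfkb2 ends at the base before the start. The Rel match began 92 bases before the start, and that of Nfkbia 29 bases before it. Tnfaip3 held 2 separate matches, 125 and 12 bases before its RefSeq start. That start lies inside the GENCODE M21 span of the gene, and so does the Tnfaip3 stretch. The Nfkb2 match shown began 39 bases before the first of its 3 annotated starts. A separate match, outside the stretch shown, began 11 bases before that start, and the windows of the other Nfkb2 starts held matches too. The Nfkb2 stretch shown lies in the first exon of an alternative Nfkb2 transcript of GENCODE M21. A long non-coding RNA on the other strand, AC114539.1, covers this stretch too. A match describes letters in a window and does not show that the factor sits there.

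**Figure D1:**
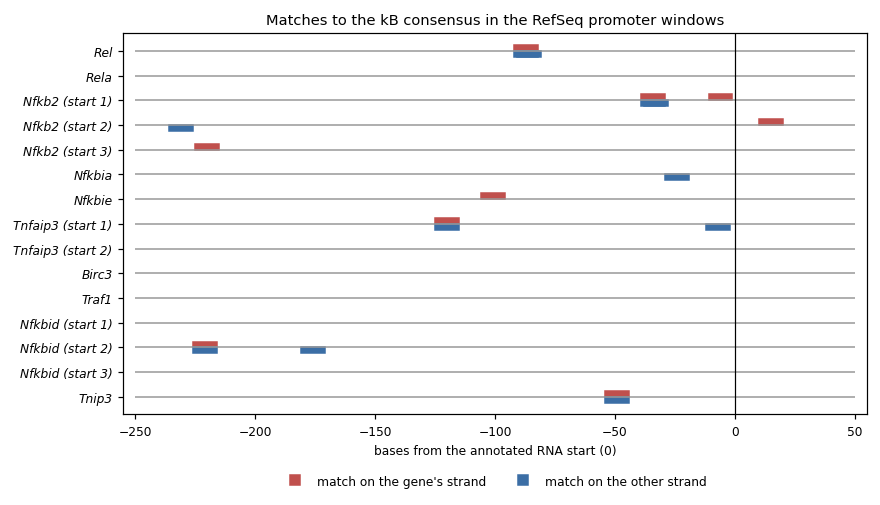
Positions of matches to the kB consensus in RefSeq promoter windows of the members and of 2 pathway genes described further on, Nfkbid and Tnip3. The horizontal axis is the distance in bases from the annotated RNA start, grey lines are the windows, and red and blue boxes are matches of 10 bases on the gene's strand and on the other strand; 5 of the 8 members with windows hold a box.

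All 10 members were read in both origins, and 7 of them were read in over 90% of the cells of each. The median cell, moLC or eLC, had reads of 9 of the 10, and reads of all 10 were present in 43.7% of the moLCs and 35.4% of the eLCs. The lowest number was 2 in a moLC and 6 in an eLC. With each cell thinned to 2052512 reads, which left 96 moLCs and 67 eLCs, the median was again 9 in both, and no member's share of cells with a read moved by more than 2.82 percentage points. Levels were compared between members per kilobase of exon. Nfkbia stood far above the rest at 1809 CPM per kb over all cells, followed by Nfkbie at 158, Rela at 119 and Relb at 119. Nfkb2 stood at 75.3, Rel at 55.2, Traf1 at 53.6 and Birc3 at 42.5, and Tnfaip3 at 24.9 and Nfkb1 at 21.4 came last. In the 4 groups of origin and plate this order failed between Nfkbie and Rela, Rela and Relb, Rel and Traf1, and Tnfaip3 and Nfkb1. The other neighbours kept their order in all 4. The order depends on exon length, taken as the union of all annotated exons, which was 12061 bases for Nfkb1. By CPM alone Nfkb1, at 255 in moLCs and 261 in eLCs, lay above Birc3 (217 and 207) and Tnfaip3 (210 and 139).

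Origin was compared by summed CPM, with a size rule in place of a test. The rule asked for reads in 25% or more of the moLCs or of the eLCs, and for a difference of 2-fold or more that pointed one way in the pooled cells and on each plate. None of the 10 members passed the rule (0 of 10). Of the 6522 genes read widely enough, 2.02% passed it. Of these, 53 were higher and 79 lower in moLCs, or 71 and 62 with TMM scaling. A 2-fold difference in the pooled cells alone was reached by 5.72% of genes and by no member. The median log2 ratio of moLCs over eLCs was 0.05 over the members and -0.10 over the 6522 genes. The median size of the ratio, sign left aside, was 0.08 for the members and 0.27 for the 6522 genes. Read counts were so high that 95% intervals on reads are much narrower than the spread between cells. Of the values above 0, 82.9% were even, so the reads were not counted independently of each other. The intervals given here therefore cover the counting of reads only and are too narrow even for that.

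The 5 subunit genes lay close to equal in the 2 origins. Their median log2 ratio was -0.03 over both plates, -0.03 within plate 1 and -0.02 within plate 2. With TMM scaling, which adds 0.10 to every pooled ratio, the values of Rel, Rela, Nfkb1 and Nfkb2 came to lie above 0, so no direction is given for these genes. Rel, which encodes c-Rel (chr11:23736847-23770970), stood at 404 CPM in plate 1 moLCs, 412 in plate 1 eLCs, 393 in plate 2 moLCs and 439 in plate 2 eLCs. All 4 values lie within a narrow range, and the pooled log2 ratio was -0.10 (95% interval of reads -0.11 to -0.08). Among single cells Rel ran from 0 to 1540 CPM in moLCs, median 338, and from 0 to 1197 in eLCs, median 379. All but 1 moLC and all but 1 eLC had reads of it.

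Nfkb1, the gene of p105 and its product p50 (chr3:135584655-135691547), was the most even member. It stood at 252, 256, 261 and 265 CPM in plate 1 moLCs, plate 1 eLCs, plate 2 moLCs and plate 2 eLCs. The ratio was -0.03 pooled and -0.02 within each plate. Leaving out 1 plate 2 eLC with 4445 reads gave 0.06, so its sign is not fixed by these cells. Single cells ran from 0 to 881 CPM in moLCs, median 236, and from 0 to 1127 in eLCs, median 224.

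Rela, which encodes the main activating subunit RelA, also known as p65 (chr19:5637483-5648130), stood at 379 CPM in plate 1 moLCs and 437 in plate 1 eLCs. On plate 2 the values were 324 and 329. Both origins were lower on plate 2 than on plate 1. The pooled log2 ratio was -0.05. Rela reads were present in 88.1% of plate 1 moLCs and 100% of plate 1 eLCs, and in 97.2% and 96% of those on plate 2.

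Relb, the subunit of the alternative route (chr7:19606217-19629438), stood at 490 and 481 CPM in moLCs of plates 1 and 2, and at 480 and 388 in eLCs. The eLCs of plate 2 were the low group. The pooled ratio was 0.20, with 0.03 within plate 1 and 0.31 within plate 2. All but 5 moLCs and all 79 eLCs had reads of it.

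Nfkb2, the gene of p100 and p52 (chr19:46304320-46312385), had equal pooled levels that hid opposite values within the plates. It stood at 280 CPM in plate 1 moLCs against 365 in plate 1 eLCs, and at 468 in plate 2 moLCs against 332 in plate 2 eLCs. The log2 ratio was -0.38 within plate 1, 0.49 within plate 2 and 0.00 pooled (95% interval of reads -0.02 to 0.01). Leaving out any 1 cell moved the plate 1 ratio between -0.45 and -0.28 and the plate 2 ratio between 0.36 and 0.59, so neither sign rests on a single cell. Of its exons, 299 bases are shared with Psd on the other strand and 531 with AC114539.1. The strand setting of the counting is not given in the sources used here.

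**Figure D2:**
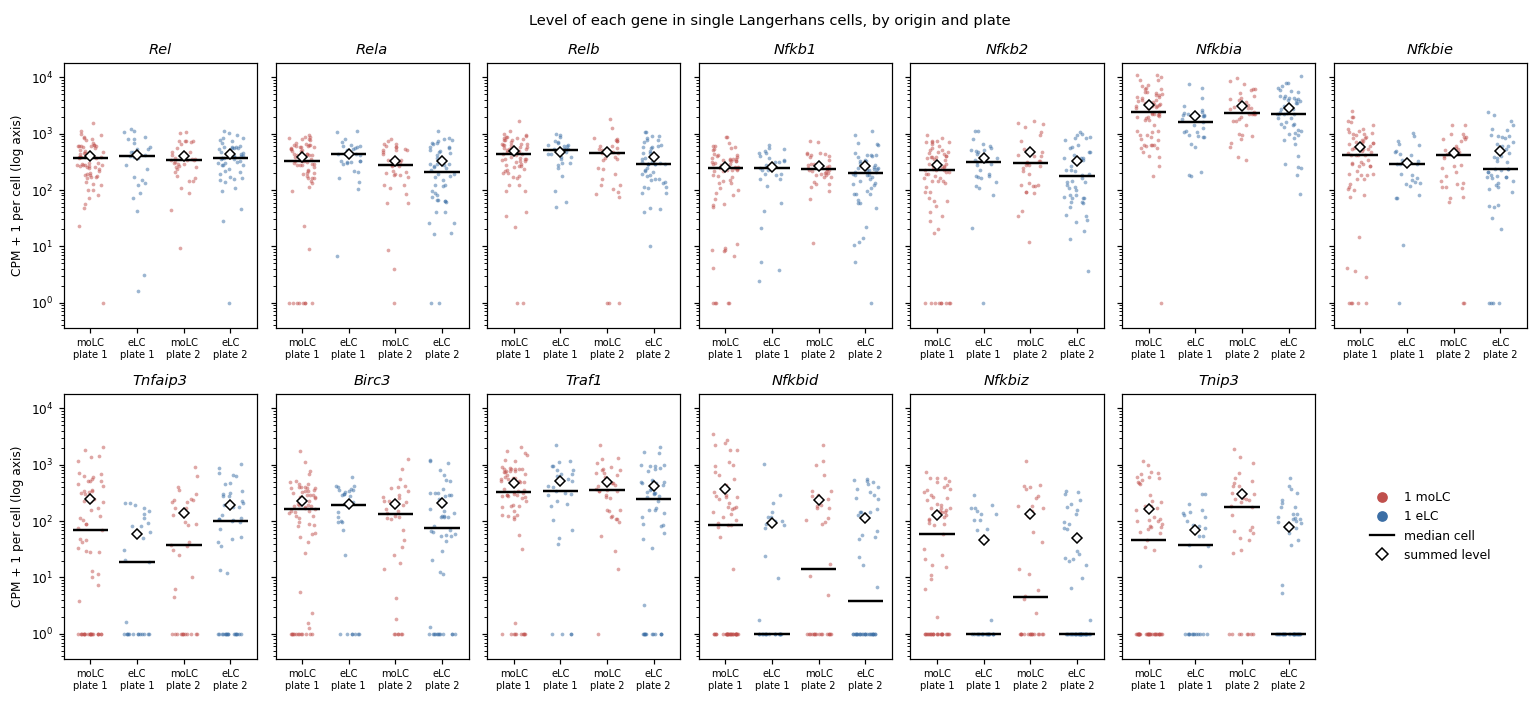
Level of each gene in single cells by origin and plate. The vertical log axis is CPM + 1, each point is 1 cell (red moLC, blue eLC), black bars are medians over cells and diamonds are summed levels. Subunits lie in a like band in all 4 groups, Nfkbia lies higher than all others, and Tnfaip3, Nfkbid, Nfkbiz and Tnip3 split into a row of cells at 0 reads and a cloud of cells with reads.

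The 5 inhibitor and feedback genes had a median log2 ratio of 0.33 pooled, 0.63 within plate 1 and -0.06 within plate 2. Nfkbia encodes IkB-alpha, the inhibitor that NF-kB quickly renews (chr12:55489410-55492647). It stood at 3217 CPM in plate 1 moLCs, 2075 in plate 1 eLCs, 3138 in plate 2 moLCs and 2841 in plate 2 eLCs. The plate 1 eLCs were the low group and the other 3 lay closer together. The ratio was 0.33 pooled, 0.63 within plate 1 and 0.14 within plate 2, and it stayed between 0.29 and 0.40 when any 1 cell was left out. Single eLCs ran from 84.8 to 10489 CPM of Nfkbia, median 2149. Single moLCs ran from 0, in 1 cell, to 10952, median 2394.

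Nfkbie encodes IkB-epsilon, an inhibitor that binds c-Rel and RelA dimers (chr17:45555703-45563169). It stood at 574 CPM in plate 1 moLCs and 297 in plate 1 eLCs, but at 449 and 486 on plate 2. The ratio was 0.95 within plate 1, just under 2-fold, and -0.12 within plate 2. The pooled value was 0.37. Median cells stood at 425 CPM in moLCs and 238 in eLCs.

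Tnfaip3 encodes A20, an enzyme that removes ubiquitin chains and ends signalling to NF-kB (chr10:19000910-19015657). It stood at 249 CPM in plate 1 moLCs and 57.6 in plate 1 eLCs, and at 137 and 194 in plate 2 moLCs and eLCs. The order of the origins was thus reversed between the plates. The log2 ratio was 2.12 within plate 1 (1.90 to 2.32 when any 1 cell was left out) and -0.50 within plate 2 (-0.79 to -0.33), and the pooled 0.60 describes neither. The gap of 2.62 between the plates was larger than that of 98.4% of the 6522 genes. Reads of Tnfaip3 were present in 67.96% of the moLCs (exact 95% interval 58.04% to 76.8%) and 62.03% of the eLCs (50.4% to 72.7%). The median cell stood at 69.6 CPM in plate 1 moLCs and 17.8 in plate 1 eLCs, and at 35.9 and 98.9 on plate 2. The 10 moLCs with the most Tnfaip3 reads held 48.8% of them.

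Birc3 and Traf1 encode a ubiquitin ligase, cIAP2, and an adaptor that binds it at TNF family receptors. Birc3 (chr9:7848699-7873186) stood at 225 CPM in plate 1 moLCs, 201 in plate 1 eLCs, 203 in plate 2 moLCs and 212 in plate 2 eLCs. These 4 values lie close together, and the pooled ratio of 0.07 ran from -0.04 to 0.20 when any 1 cell was left out. Traf1 (chr2:34941750-34961772) stood at 473 and 524 CPM in plate 1 moLCs and eLCs and at 486 and 425 on plate 2. One plate 1 eLC with 10026 reads held 21.8% of the Traf1 reads of its group. The pooled ratio of 0.04 became 0.16 without it. The share of cells with Traf1 reads was 85.1% for moLCs and 86.2% for eLCs on plate 1, and 97.2% and 76% on plate 2.

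**Figure D3:**
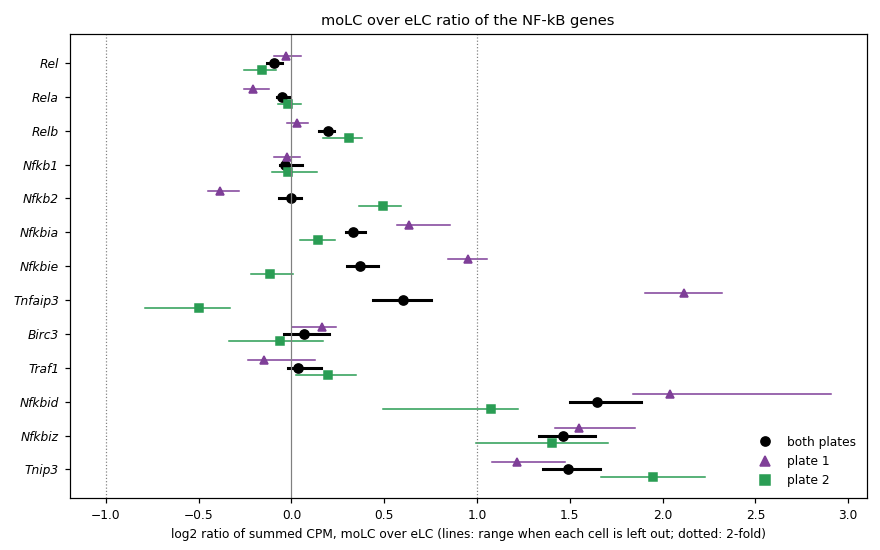
Log2 ratio of summed CPM, moLC over eLC, for the 10 members and 3 pathway genes. Black points are both plates, triangles plate 1 and squares plate 2, lines are the range when each cell is left out in turn, and dotted lines mark 2-fold; only Nfkbid, Nfkbiz and Tnip3 lie beyond 2-fold in all 3 values, and Tnfaip3 lies at 2.12 in plate 1 and -0.50 in plate 2.

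In all, Nfkb2, Nfkbie, Tnfaip3, Birc3 and Traf1, which are 5 of 10, had opposite signs within the plates. That was so for 45.7% of the 6522 genes, so the share of the members is near the background. Immediate early and heat shock genes, 16 genes that handling of cells can induce, were read as well. Their summed level was 16062 CPM in plate 1 moLCs and 7815 in plate 1 eLCs, and 10885 and 9009 on plate 2. These are log2 ratios of 1.04 and 0.27. Median cells stood at 8498 CPM in plate 1 moLCs and 5683 in plate 1 eLCs, and at 4891 and 3818 on plate 2. On plate 1 the gap was thus smaller in median cells than in the sums, and the highest plate 1 moLC reached 100571 CPM. All 16 genes had reads in each of the 4 groups. Of the 16 ratios, 14 lay above 0 within plate 1 and 10 within plate 2, with medians of 1.16 and 0.25. Across the 182 cells the summed level had a Spearman rho of 0.42 with Nfkbia, 0.33 with Nfkbie, 0.26 with Tnfaip3 and 0.22 with Birc3. Within the eLCs alone the last 2 values were 0.095 and 0.063. For Traf1 the value was -0.22, so the feedback genes did not share 1 direction. Among the subunits it was 0.16 for Relb (-0.04 on plate 1 and 0.39 on plate 2), 0.095 for Nfkb2, 0.00 for Rel, -0.05 for Rela and -0.19 for Nfkb1. The part of handling in the plate 1 difference was not tested.

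**Figure D4:**
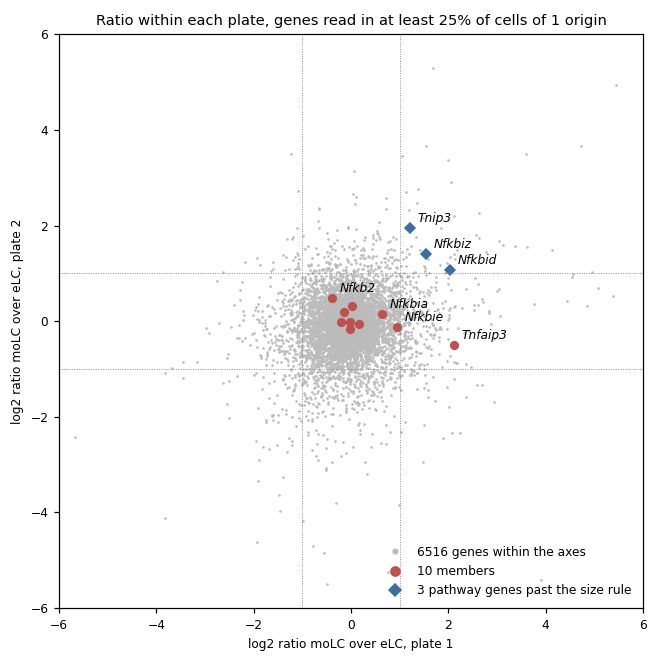
Log2 ratio of moLC over eLC within plate 1 (horizontal) and plate 2 (vertical). Grey points are the 6516 genes that fall within the axes, red points are the 10 members and blue diamonds are the 3 pathway genes past the size rule; the members lie among the bulk of the genes except Tnfaip3, which lies to the right at 2.12 and below 0.

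Around the members, 82 further genes of the pathway in 7 lists were examined, of which 58 were read widely enough for the size rule. Nfkbid, Nfkbiz and Tnip3 passed it and none passed it in the other direction. All 3 were higher in moLCs, which is 5.17% of the 58 genes beside 0.813% of all 6522. The lists were chosen with earlier results of these data known, so these shares are a description and not a test. Of the 58, 32 had a pooled ratio above 0 and 26 below, and the median was 0.10. Nfkbid and Nfkbiz encode IkB-NS and IkB-zeta, atypical IkB proteins that work in the nucleus on DNA-bound dimers. Tnip3 encodes ABIN-3, a partner of A20.

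Nfkbid (chr7:30421732-30428746) stood at 372 CPM in plate 1 moLCs and 90.5 in plate 1 eLCs, and at 239 and 113 on plate 2. Both moLC groups lay above both eLC groups. The log2 ratio was 1.65 pooled, 2.04 within plate 1 and 1.07 within plate 2. The share of cells with a read was 55.3% for moLCs and 49.4% for eLCs, and the median of cells with a read was 264 CPM in moLCs and 132 in eLCs. Few cells carried most of it, since 10 moLCs held 64.6% of the moLC reads. The plate 2 ratio came to 0.49 when 1 cell was left out, and the size rule was no longer met without any 1 of 4 cells.

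Nfkbiz (chr16:55811375-55838899) stood at 129.9 and 130.5 CPM in moLCs of plates 1 and 2 and at 44.4 and 49.2 in eLCs. The plates differed little within an origin. The ratio was 1.46 pooled, 1.55 within plate 1 and 1.41 within plate 2, and removal of 1 cell brought plate 2 to just under 2-fold, at 0.996. Nfkbiz reads were present in 61.2% of the moLCs (exact 95% interval 51.1% to 70.6%) and 41.8% of the eLCs (30.8% to 53.4%).

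Tnip3 (chr6:65525313-65634040) stood at 161 and 301 CPM in moLCs of plates 1 and 2 and at 69.3 and 77.99 in eLCs. Both moLC groups were again above both eLC groups. The ratio was 1.49 pooled, 1.22 within plate 1 and 1.95 within plate 2, and no single cell ended the call. Its reads were present in 53.7% of plate 1 moLCs and 58.6% of plate 1 eLCs, and in 77.8% and 48% on plate 2. The stretch before its RefSeq start held a match to the kB consensus that reads on both strands, 54 bases before that start. This RefSeq start and the stretch lie inside the GENCODE span given above, not at its first base. The stretch is shown because Tnip3 was the gene past the size rule that no single cell decided.

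Tnip3, chr6:65590268-65590397, plus strand: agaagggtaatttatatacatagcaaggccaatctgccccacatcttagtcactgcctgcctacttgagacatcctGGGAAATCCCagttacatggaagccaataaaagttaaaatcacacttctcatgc

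A second start of Nfkbid also held matches, and Nfkbiz had no window in the table used. Reads of all 3 genes together were present in 17.9% of plate 1 moLCs and 24.1% of plate 1 eLCs, and in 33.3% and 14% on plate 2, so the order of the origins turned between the plates. Across cells Nfkbid had a rho of 0.37 and Nfkbiz of 0.35 with Tnfaip3, and they had 0.39 and 0.27 with Nfkbia. Tnip3 had -0.01 with Tnfaip3 and 0.00 with Nfkbia. The summed immediate early level had a rho of 0.20 with Nfkbid, 0.28 with Nfkbiz and -0.13 with Tnip3. For Tnip3 it was -0.32 on plate 1 and 0.10 on plate 2.

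None of the other pathway genes passed the size rule, and those with the most reads per kilobase are given here by role. Among the IkB genes, Nfkbib, which encodes IkB-beta, stood at 441 CPM in moLCs and 474 in eLCs, a log2 ratio of -0.10. Of 12 kinases 9 were read widely enough. The leading ones per kilobase, though not by CPM, were Ripk2, which acts downstream of NOD receptors, and Tbk1. Their pooled ratios were 0.22 and -0.02. Of 14 adaptors and ubiquitin enzymes 11 were read widely enough. The CARD adaptor Bcl10 had a pooled ratio of -0.12. Myd88, the adaptor of Toll-like and IL-1 receptors, had -0.35 within plate 1 and 0.78 within plate 2.

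Of 8 brakes of the pathway 7 were read widely enough, and Tnip1 and Tnip2, the genes of 2 other A20-binding proteins, had pooled ratios of 0.05 and 0.56. Of 11 receptors 6 were read widely enough. Cd40, the receptor through which T cells activate dendritic cells, stood at 903 CPM in moLCs and 929 in eLCs, and Tnfrsf1b, the second TNF receptor, had ratios of -0.23 within plate 1 and 0.03 within plate 2. Of 8 ligands only Il1b and Tnf were read widely enough. Il1b stood at 4526 CPM in moLCs and 3961 in eLCs with ratios of 0.93 within plate 1 and -0.11 within plate 2. Tnf stood at 429 and 261 CPM, with ratios of 1.26 and 0.33. Of 25 target genes 19 were read widely enough. Cd83, a surface marker of dendritic cell maturation, had a ratio of 0.37 within plate 1 and 0.02 within plate 2. The chemokine gene Cxcl2 had 1.44 within plate 1 and -0.66 within plate 2. Tlr7, Cd40lg, Il6 and Il12b had no read in any of the cells.

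Correlations between members were then described over the 182 cells, as Spearman rho of CPM. The cells share 2 plates and their depths differ, so no p is given. The 45 pairs had a median rho of 0.14, and the median of all pairs of the 5988 genes read in at least 25% of cells was 0.02. Of the member pairs 17 (37.8%) lay above the 95th percentile of all pairs, which was 0.16, and 1 lay below the 5th percentile, which was -0.12. The median was 0.14 in moLCs, 0.16 in eLCs, 0.11 on plate 1 and 0.17 on plate 2. Against the 95th percentile of the same cells, 8 pairs (17.8%) lay above it on plate 1 and 17 on plate 2. Plate 1 moLCs alone had 5 such pairs (11.1%) and plate 1 eLCs 4 (8.89%). Plate 2 moLCs had 15 (33.3%) and plate 2 eLCs 14 (31.1%), so the share above the percentile was larger on plate 2.

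Most of the highest pairs joined the subunit genes Rela, Relb and Nfkb2 with each other or with Nfkbie. Rela and Nfkb2 had a rho of 0.39, Relb and Nfkb2 0.34, Relb and Nfkbie 0.32, Nfkb2 and Nfkbie 0.29, and Rela and Relb 0.28. Each was positive in all 4 groups of origin and plate. Rela and Nfkb2 ranged there from 0.17 in plate 1 moLCs to 0.66 in plate 2 eLCs. The mt percentage of a cell had a rho of -0.35 with Rela, -0.36 with Nfkb2 and -0.29 with Relb, and total reads had 0.19, 0.26 and 0.34. With the ranks of total reads, genes read and mt percentage and with plate and origin taken out, the pair of Rela and Nfkb2 kept a rho of 0.30, Relb and Nfkb2 0.26, and Relb and Nfkbie 0.33.

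A separate pair, also among the highest, was formed by the feedback genes Nfkbia and Tnfaip3. Its rho was 0.31, from 0.10 to 0.39 in the 4 groups. Tnfaip3 also had 0.24 with Nfkbie and 0.23 with Birc3. The most negative pair was Rela and Nfkbia at -0.25, below all but 0.19% of all gene pairs. It was negative in all 4 groups, from -0.28 to -0.05. Over all cells the highest member partner of Rel was Relb at 0.17, which ranked 229 of 5987 genes. The pooled values of Rel hide unlike values in the origins, since Rel and Nfkb2 had 0.41 in eLCs (0.39 on plate 1 and 0.42 on plate 2) and -0.08 in moLCs. Rel and Rela had 0.20 in eLCs and -0.06 in moLCs. These differences were not tested.

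**Figure D5:**
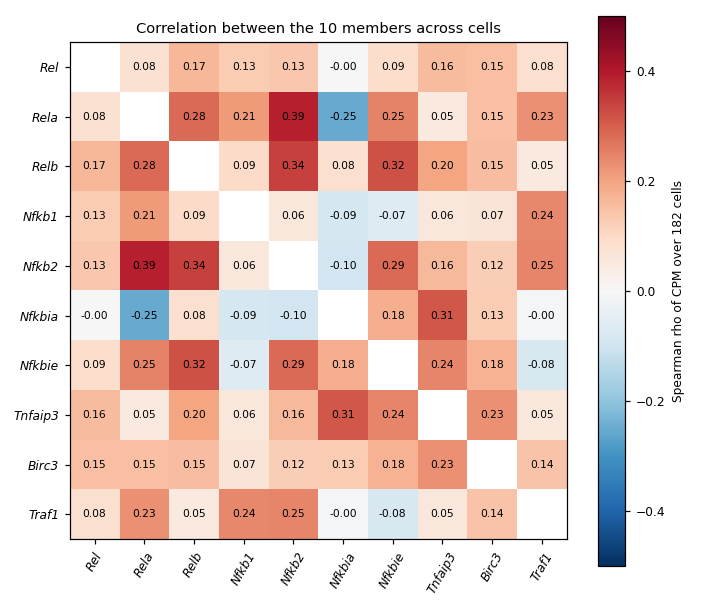
Spearman rho of CPM between the 10 members over 182 cells, with the value in each square and colour from -0.5 (blue) to 0.5 (red). Most of the reddest squares join Rela, Relb, Nfkb2 and Nfkbie, with 0.39 the highest. Nfkbia with Tnfaip3 stands at 0.31, and the bluest square is Rela with Nfkbia at -0.25.

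The genes most like each member, by rho over the same cells, differed between members. Eif4g2, a translation initiation factor gene, was among the closest to both Rela (0.46) and Nfkb2 (0.51). Adgrg1, an adhesion receptor gene, was among them for Rela (0.44) and Copa, a coatomer subunit gene, for Nfkb2 (0.48). For Relb they were Tnip1 (0.40), Pxdc1 (0.36) and Cd83 (0.34). For Rel they were Tbc1d4, a Rab regulator (0.44), Hilpda, a lipid droplet protein gene (0.39), and Gpr132, a G protein-coupled receptor gene (0.38). For Nfkb1 the values were lower, with Lman2 at 0.29, Bcl2a1d at 0.28 and H2-Q7 at 0.27. The last 2 belong to families of near-identical copies among which reads can be split.

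For Nfkbia the closest were Gadd45b (0.57), Dusp1 (0.56) and Tnf (0.54), all genes that are induced fast by stress or cytokines. For Tnfaip3 they were Cd83 (0.40), Nfkbid (0.37) and Nfkbiz (0.35), of which the latter 2 passed the size rule. For Nfkbie they were Txnip (0.47), Dok3 (0.44) and Dapp1 (0.40), for Birc3 Sqstm1 (0.33), Rbpj (0.31) and Cops2 (0.30), and for Traf1 Ehd1 (0.53), St3gal1 (0.40) and Basp1 (0.40). By the mean rho with all 10 members, Cd83, Tbc1d4, Eif4g2, Gpr132, Tnip1, Mtmr6, Zc3h12a, Stat3 and Cyfip1 were among the highest genes, from 0.24 to 0.20. The median of all other genes was 0.00 and their 95th percentile 0.09. Cd83, Tbc1d4, Gpr132, Tnip1, Zc3h12a, Stat3 and Cyfip1 had a positive rho with all 10 members.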

How the data were processed

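Single LCs were sorted and amplified by Smart-Seq, Nextera XT libraries were read paired-end, and the authors aligned them with STAR to mm10. The counting tool and annotation are not given in the sources used here. The authors deposited 1 table of counts, 45661 genes by 185 cells. In 8 cells 9 values were not whole, so these columns were taken as deposited estimated counts and rounded. Cells with over 5% of reads on the 37 mt- genes were left out. Summed CPM were compared between moLCs and eLCs, pooled and within plates. A group at 0 reads was set to 3 reads. Intervals are exact Poisson, binomial or Clopper-Pearson at 95%. With 1 sample per origin no test was made and no replicate was available. Exon lengths are unions of GENCODE M21 exons, and promoters are from RefSeq (GRCm38.p6). TMM factors came from edgeR 4.0.16, other steps from Python 3.11.15. The size rule and correlations were checked on simulated data. The members and gene lists were chosen with earlier results of these data known. Named besides the members were pathway genes past the size rule, the 2 of each list with most reads per kilobase, the 3 genes most correlated with each member, and the 10 with the highest mean rho. One gene that this rule names is not reported here.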

Additional observations from a re-analysis of the deposited data

How the results depend on the processing

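No paired analysis was possible because cells carry no replicate number shared between the origins. The count of members past the size rule was 0 under all 13 alternatives that changed the cells, the scaling or the rule, and when any 1 cell was left out. Some of these alternatives could not change the count. The 3-fold limit is stricter, and all members were eligible at every minimum share. The limit of at least 1000 genes per cell moved no ratio. The median log2 ratio of the members was 0.05. It was 0.033 with the mt limit at 2.5%, 0.14 with equal weight per cell, 0.155 with TMM factors, 0.12 without the 50 most read genes and 0.10 in thinned cells. It was 0.0037 on plate 1 alone and -0.019 on plate 2 alone, and 0.0042 to 0.155 when any 1 cell was left out. TMM thus shifted every ratio by 0.10, and Rel, Rela, Nfkb1 and Nfkb2 turned sign with it. Nfkbid, Nfkbiz and Tnip3 stayed higher in moLCs under every alternative run, but Nfkbid no longer met the rule in thinned cells or with equal weight per cell, and none of the 3 did at 3-fold. Without the cell with the most reads in each origin, an alternative chosen after seeing the data, their ratios were 1.74, 1.51 and 1.52. The number of all genes past the rule, 132, became 1546 with no minimum share, 23 at 50% of cells, 501 at 1.5-fold, 32 at 3-fold and 373 without the plates. The median correlation between members ran from 0.11 to 0.17 over its alternatives, with 0.12 when mt percentage was taken out as well, which was added after seeing the data. In the 4 groups of origin and plate the range was wider, from 0.06 in plate 1 eLCs to 0.19 in plate 2 eLCs.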

Other observations

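The members were also set beside markers of maturing, migrating dendritic cells, a list of 8 genes that includes Ccr7, the receptor by which LCs leave the skin. Traf1 had a Spearman rho of 0.31 with Ccr7 over 182 cells, 0.29 on plate 1 and 0.31 on plate 2, and Rel had 0.27, with 0.25 and 0.30. Rela and Relb had -0.01 and 0.01. With the summed level of the 8 genes, Tnfaip3 had 0.40, Rel 0.34, Nfkbia 0.30 and Relb 0.29, while Nfkb1 and Rela had 0.09 each. The summed level of these markers was 8309 CPM in plate 1 moLCs, 5619 in plate 1 eLCs, 6359 in plate 2 moLCs and 6186 in plate 2 eLCs. Median cells stood at 5793, 6018, 5902 and 4952 CPM in the same order, so on plate 1 they did not follow the sums. The highest plate 1 moLC reached 62711 CPM. Cd83, itself a known NF-kB target, made up 75.8% of the summed level in moLCs and 85% in eLCs. The values for the summed level are therefore largely those of Cd83. Tnfaip3 had 0.40 with Cd83 alone, and 0.14 with Ccr7 (0.07 on plate 1 and 0.24 on plate 2).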
